A study of Homo sapiens with 11 samples.

Results

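PLPP4, FOXS1, SALL2, EDIL3, IGFL3, CCBE1, XYLT1 and HMCN1 are 8 of the 20249 named genes on an expression array of lung adenocarcinoma cells. They were chosen by measured values: their signal was low in A549 cells carrying an empty vector and raised in A549 cells carrying wild-type TRIM58, and 8 of the 42405 probes, 1 for each gene, measured them. The choice was made on the A549 arrays, so their A549 values are given below as a description and without a test, and only HCC827, whose arrays the choice did not use, provides a test.

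Total RNA of stable transfectants was hybridised in 1 colour to 11 Agilent arrays. A549 and HCC827 are established human lung adenocarcinoma cell lines, and HCC827 carries an activating deletion in EGFR. The mock cells had been infected with a retrovirus made from the empty pMXs-Neo vector and the TRIM58-WT cells with one that encodes wild-type TRIM58 with a FLAG tag, and both were selected with G418. A549 mock was covered by 3 replicates on 4 arrays (arrays 1-1 and 1-2 carry the same control cell and were averaged to 1 replicate), A549 TRIM58-WT by 3 arrays, and HCC827 mock and HCC827 TRIM58-WT by 2 arrays each. The methods describe clones isolated after selection, the HCC827 cells are elsewhere called crude transfectants, and the labels do not state which replicate was which clone, so the p-values measure the spread between these samples only, and a difference between clones cannot be told apart from an effect of TRIM58.

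The 8 genes have different functions. PLPP4 is a membrane enzyme that removes phosphate from lipids such as phosphatidic acid. FOXS1 is a forkhead transcription factor and SALL2 a zinc finger transcription factor of the spalt family. EDIL3, IGFL3, CCBE1 and HMCN1 are secreted: EDIL3 binds integrins through an RGD motif, IGFL3 belongs to a family of small insulin growth factor-like proteins, CCBE1 promotes the cleavage of the lymphatic growth factor VEGFC, and HMCN1 (hemicentin-1) is a large matrix protein of the fibulin family. XYLT1 places the first xylose on proteoglycan core proteins, the step from which glycosaminoglycan chains grow.

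The RefSeq promoter table (assembly GRCh38.p14, 35116 entries of 300 bases) held 8 entries for 6 of the 8 genes, with a second start for EDIL3 and for PLPP4 and with none for FOXS1 and HMCN1. The 250 bases before the first start listed are shown for EDIL3 and CCBE1, which were measured in both lines, and for PLPP4 and IGFL3, which were dark in HCC827 and differ in CpG content. They read 5′ to 3′ on the strand of the gene, and capitals mark matches to the motifs searched.
EDIL3 (chr5:84384881-84385130, minus strand): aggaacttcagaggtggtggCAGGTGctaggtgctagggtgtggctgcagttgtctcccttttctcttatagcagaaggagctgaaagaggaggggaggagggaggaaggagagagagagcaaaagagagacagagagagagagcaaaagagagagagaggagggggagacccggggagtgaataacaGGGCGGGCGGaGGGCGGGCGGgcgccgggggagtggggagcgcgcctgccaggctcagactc
CCBE1 (chr18:59697424-59697673, minus strand): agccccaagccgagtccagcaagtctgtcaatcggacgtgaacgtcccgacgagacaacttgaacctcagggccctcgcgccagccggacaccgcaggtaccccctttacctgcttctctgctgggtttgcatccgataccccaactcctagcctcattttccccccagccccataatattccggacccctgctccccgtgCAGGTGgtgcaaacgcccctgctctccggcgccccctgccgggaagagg
PLPP4 (chr10:120456704-120456953, plus strand): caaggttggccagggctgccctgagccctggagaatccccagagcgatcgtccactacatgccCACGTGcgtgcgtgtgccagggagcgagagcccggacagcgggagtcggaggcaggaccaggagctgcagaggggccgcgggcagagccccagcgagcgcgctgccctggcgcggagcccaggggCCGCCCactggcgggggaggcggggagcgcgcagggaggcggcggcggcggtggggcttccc
IGFL3 (chr19:46124689-46124938, minus strand): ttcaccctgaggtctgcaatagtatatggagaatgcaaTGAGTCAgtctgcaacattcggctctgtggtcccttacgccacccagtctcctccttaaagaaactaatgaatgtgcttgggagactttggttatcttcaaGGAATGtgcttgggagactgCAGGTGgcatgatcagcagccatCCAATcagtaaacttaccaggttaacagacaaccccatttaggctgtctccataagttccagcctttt
The motifs, searched on both strands over all 8 entries in full, were the TATA box TATAAA, the box CCAAT, the GC box GGGCGG, the E-boxes written CACGTG and CAGGTG, the AP-1 site TGANTCA, the TEAD site CATTCC and the forkhead site GTAAACA. In EDIL3, matches to GGGCGG overlap each other, so that both runs of capital letters that begin with GGGCGG hold more than 1 match. GGGCGG was found in EDIL3, PLPP4 and XYLT1, and in 45.0% of all entries. CAGGTG was found in CCBE1, EDIL3 and IGFL3 and in 20.6% of all entries. IGFL3 alone of the 6 held CCAAT (34.6% of all entries), TGANTCA (7.71%) and CATTCC (14%), and PLPP4 alone held CACGTG (7.26%), in its first entry only. TATAAA, present in 12% of all entries, and GTAAACA, present in 3.42%, matched in 0 of the 6. No motif was thus found in all 6 genes. The observed over expected CpG ratio was 0.75 and 0.85 for the first and second entries of PLPP4, 0.62 and 0.61 for those of EDIL3, 0.80 for CCBE1, 0.59 for XYLT1, 0.22 for SALL2 and 0.19 for IGFL3, against a median of 0.58 and quartiles of 0.23 and 0.86 over all entries. SALL2 and IGFL3 lay below the lower quartile and the others between the quartiles. These matches are a description of letters in a window.

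Levels are on a log2 scale, relative to the 75th percentile of all probes of the same array, so that 0 is the signal of a probe at that percentile. The share of probes well above background lay between 40.1% and 50% on the 11 arrays, and no probe was saturated. The TRIM58 probe was at -5.28, -5.33, -5.18 and -0.71 on A549 mock arrays 1-1, 1-2, 2 and 3 and at -4.84, -4.63 and -4.63 on the A549 TRIM58-WT arrays. It was well above background on mock array 3 alone, and on none of the HCC827 arrays, where it lay at -5.15 and -5.25 in mock and at -5.64 and -5.38 in TRIM58-WT. Whether this probe lies in the part of TRIM58 that the vector carries was not analysed here, so the groups are named by their labels. Mock array 3 also stood apart over all probes, with r = 0.967, 0.969 and 0.966 to the other mock arrays and 0.974 to TRIM58-WT array 2, whereas mock arrays 1-1 and 1-2 had r = 0.989. TRIM58-WT arrays 2 and 3 had r = 0.988 to each other and 0.942 and 0.946 to TRIM58-WT array 1. The arrays were on 2 slides, which separate them as the scan date does: slide 1 held mock 1-1, mock 2, TRIM58-WT 1 and all HCC827 arrays, and slide 2 the others.

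Seen across the arrays, all 8 genes were dark on all 4 A549 mock arrays, that is, not well above background. PLPP4, FOXS1, SALL2, EDIL3 and IGFL3 were well above background on all 3 A549 TRIM58-WT arrays, CCBE1 on 2 of them, and XYLT1 and HMCN1 on TRIM58-WT array 1 alone. Of the 21957 probes dark on all A549 mock arrays, 158 were well above background on all 3 TRIM58-WT arrays, among them 5 of the 8 genes, and 3137 on 1 or 2 of them, among them the other 3. By these flags, switched on in every TRIM58-WT replicate describes PLPP4, FOXS1, SALL2, EDIL3 and IGFL3, and does not describe CCBE1, XYLT1 and HMCN1. These 5 also passed the filter for testing, which asked for a signal well above background throughout 1 of the groups compared. In all 8 genes every TRIM58-WT replicate lay above every mock replicate, as did 15.9% of the 16920 probes tested in A549. That separation is what the choice asked for.

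**Figure D1:**
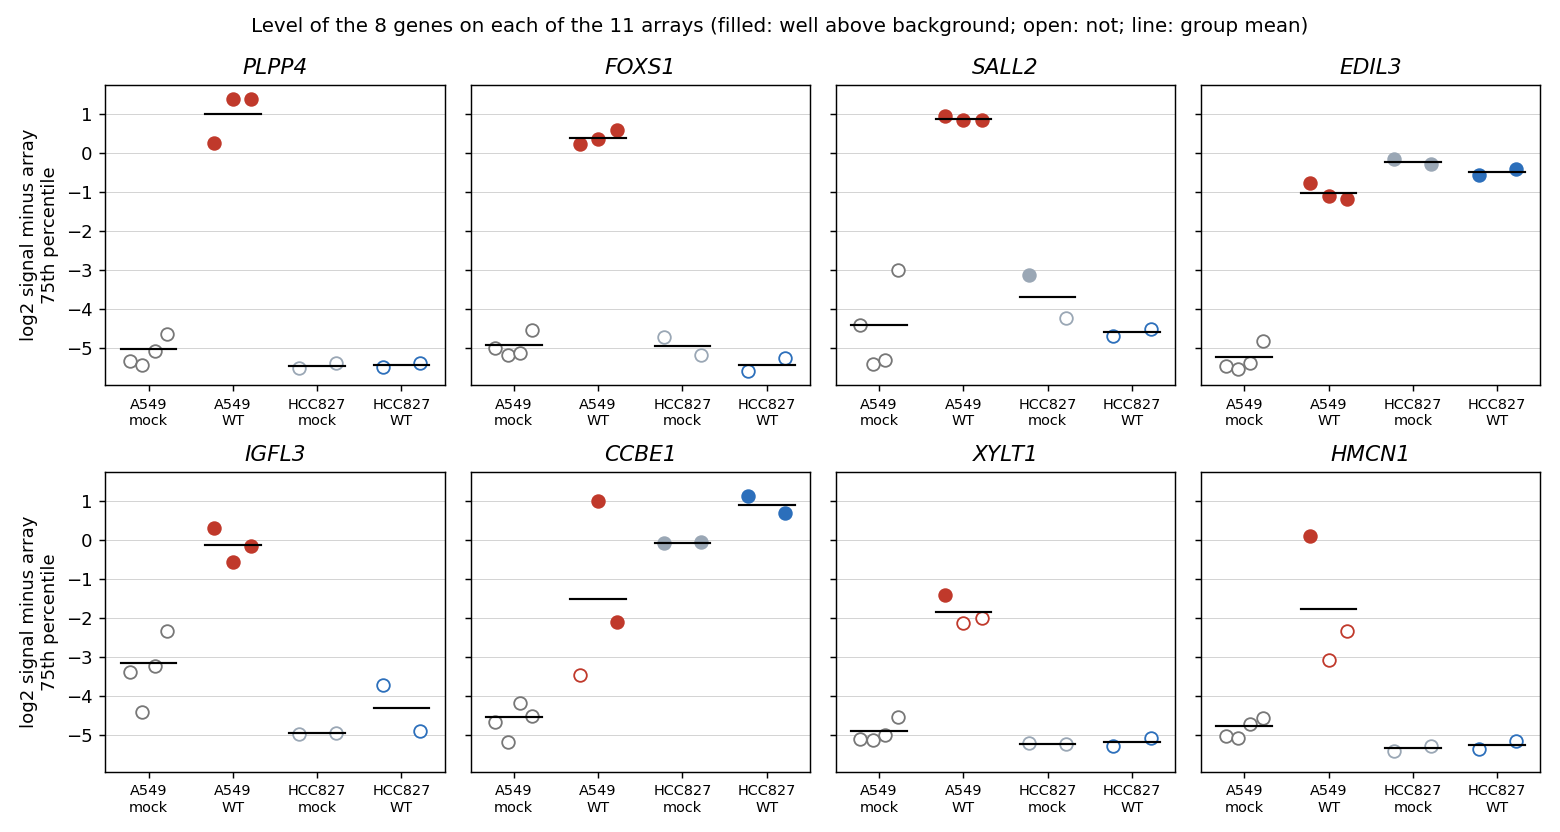
Level of each of the 8 genes on the 11 arrays, as log2 signal minus the 75th percentile of the array (vertical axis), by cell line and vector; filled points are well above background, open points are not, and lines are group means. PLPP4, FOXS1, SALL2, EDIL3 and IGFL3 have 3 filled points in A549 TRIM58-WT and none in A549 mock, and EDIL3 and CCBE1 have filled points on all 4 HCC827 arrays.

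PLPP4 (chromosome 10, 120456954 to 120592065), the lipid phosphatase, was at -5.33, -5.41, -5.05 and -4.64 on A549 mock arrays 1-1, 1-2, 2 and 3 and at 0.27, 1.38 and 1.40 on the TRIM58-WT arrays. The TRIM58-WT mean was 1.01 ± 0.65 (SD, n = 3) and the mock mean -5.02 ± 0.37 (SD, n = 3), and array 1 was the lowest of the TRIM58-WT arrays. Since a dark signal only bounds a level, the difference is given as a lower bound: the TRIM58-WT mean was set against, on each mock array, the lowest signal of any probe well above background or the gene's own signal, whichever was higher. In such bulk RNA, fewer cells with a transcript and less of it per cell cannot be told apart. By this measure PLPP4 was raised at least 15.0-fold in A549 TRIM58-WT. This bound and those that follow depend on the background subtraction used here, and smaller differences with another correction are given below. Single spots above that lowest signal could also be dark. On TRIM58-WT array 3 the lowest signal was -2.54, and 1 spot of XYLT1 was dark at -2.35. In HCC827 PLPP4 was dark on all 4 arrays, at -5.51 and -5.38 in mock and at -5.47 and -5.38 in TRIM58-WT.

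FOXS1 (chromosome 20, 31844303 to 31845604), the forkhead factor, was at -4.98, -5.17, -5.11 and -4.52 on the A549 mock arrays and at 0.23, 0.35 and 0.60 on the TRIM58-WT arrays. The TRIM58-WT arrays lay close together (0.39 ± 0.19, SD, n = 3), and FOXS1 was at least 9.74-fold higher there. On the HCC827 arrays it was dark, between -5.59 and -4.71. SALL2 (chromosome 14, 21521080 to 21537121), the zinc finger factor, was at -4.39, -5.39, -5.28 and -3.00 on the A549 mock arrays and at 0.96, 0.85 and 0.84 on the TRIM58-WT arrays. Its mock arrays differed more (SD 1.22, n = 3) than its TRIM58-WT arrays (SD 0.07, n = 3), with mock array 3 the highest. SALL2 was at least 13.7-fold higher in A549 TRIM58-WT. In HCC827 it was well above background on mock array 1 alone, at -3.13, and at -4.23 on mock array 2, -4.67 and -4.50 in TRIM58-WT.

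EDIL3 (chromosome 5, 83940554 to 84384880), the secreted integrin ligand with the GC boxes shown above, was at -5.45, -5.53, -5.37 and -4.81 on the A549 mock arrays and at -0.78, -1.10 and -1.17 on the TRIM58-WT arrays. It was at least 3.67-fold higher in TRIM58-WT, whose arrays agreed within an SD of 0.21 (n = 3). HCC827 mock already had the gene, at -0.14 and -0.29, at least 6.39-fold above A549 mock. The level of EDIL3 in A549 TRIM58-WT, -1.01 ± 0.21 (SD, n = 3), lay below those of HCC827 TRIM58-WT, -0.48 ± 0.12 (SD, n = 2), and HCC827 mock, -0.21 ± 0.11 (SD, n = 2). The arrays of these 3 groups did not overlap. The share of all probes that separate in this way was not counted, and the choice used the A549 values. IGFL3 (chromosome 19, 46120067 to 46124688), the insulin growth factor-like protein, was at -3.39, -4.39, -3.24 and -2.34 on the A549 mock arrays, highest on array 3, and at 0.31, -0.58 and -0.15 on the TRIM58-WT arrays. It was at least 6.55-fold higher in A549 TRIM58-WT. In HCC827 it was dark on all arrays, at -4.96 and -4.93 in mock and at -3.71 and -4.88 in TRIM58-WT.

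CCBE1, XYLT1 and HMCN1 were not measured on all TRIM58-WT arrays, and the replicates of CCBE1 and HMCN1 differed widely. CCBE1 (chromosome 18, 59430939 to 59697721), the factor that promotes VEGFC cleavage, was at -4.65, -5.18, -4.17 and -4.51 on the A549 mock arrays. On the TRIM58-WT arrays it was at -3.47 (dark), 1.00 and -2.11, a range of 22.2-fold between replicates. TRIM58-WT arrays 2 and 3, which were close over all probes, were thus far apart for this gene. Since 1 of the 3 arrays was dark, no bound is given for the group. Without TRIM58-WT replicate 2 its difference in means fell from 3.01 to 1.74. HCC827 mock was at least 7.04-fold and HCC827 TRIM58-WT at least 13.9-fold above A549 mock. In order, the levels were -4.53 ± 0.37 in A549 mock, -1.52 ± 2.29 in A549 TRIM58-WT (SD, n = 3 each), -0.07 ± 0.01 in HCC827 mock and 0.90 ± 0.31 in HCC827 TRIM58-WT (SD, n = 2 each). The spread of A549 TRIM58-WT reached into both HCC827 groups.

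XYLT1 (chromosome 16, 17101769 to 17470960), the xylosyltransferase, was at -5.09, -5.13, -5.00 and -4.53 on the A549 mock arrays and at -1.40, -2.12 and -2.0 on the TRIM58-WT arrays. The TRIM58-WT arrays lay within a range of 1.64-fold. The probe of XYLT1 was printed on 2 spots. Both were well above background on TRIM58-WT array 1, and 1 of the 2 on each of arrays 2 and 3, which did not reach the share required (over 0.5). With 1 of 3 arrays measured, no bound is given. HMCN1 (chromosome 1, 185734391 to 186190949), the hemicentin, also has 2 spots. It was at -5.02, -5.07, -4.71 and -4.56 on the A549 mock arrays and at 0.09, -3.06 and -2.33 on the TRIM58-WT arrays, so that array 1 was far above the other two. Its 2 spots on TRIM58-WT array 1 gave 0.10 and 0.09. With 1 of 3 arrays measured, no bound is given either, and without TRIM58-WT replicate 1 its difference in means fell from 3.00 to 2.07. XYLT1 and HMCN1 were dark on all 4 HCC827 arrays, XYLT1 between -5.28 and -5.08 and HMCN1 between -5.41 and -5.14.

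The differences in means, TRIM58-WT minus mock in A549, were 6.03 for PLPP4, 5.29 for FOXS1, 5.28 for SALL2, 4.21 for EDIL3, 3.02 for IGFL3, 3.01 for CCBE1, 3.04 for XYLT1 and 3.00 for HMCN1 (log2). They rest on dark mock signals and, for CCBE1, XYLT1 and HMCN1, also on dark TRIM58-WT signals, and exceed the bounds where these are given. With normexp background correction the same differences were 2.05, 1.46, 1.79, 0.93, 0.81, 0.72, 0.59 and 0.74 in that order. All were still higher in TRIM58-WT, the direction that the choice asked for. For PLPP4, FOXS1, SALL2, EDIL3 and IGFL3 they lay below the bounds, which were 3.90, 3.28, 3.77, 1.88 and 2.71 (log2). The bounds thus do not hold under this correction. Scaling by the median in place of the 75th percentile moved the median A549 difference of all probes by -0.37 and each of the 8 differences by the same amount. Slide 1 held 1 TRIM58-WT array against 2 mock arrays, and slide 2 held 2 against 2. Within each slide all 8 genes were higher in TRIM58-WT, which follows from the separation that the choice asked for. PLPP4 differed by 5.46 and 6.41, FOXS1 by 5.28 and 5.32, SALL2 by 5.80 and 5.04, EDIL3 by 4.64 and 4.04, and IGFL3 by 3.63 and 3.00 on slides 1 and 2. The slides differed more for CCBE1 (0.94 and 4.29) and HMCN1 (4.95 and 2.12) than for XYLT1 (3.64 and 2.78).

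**Figure D2:**
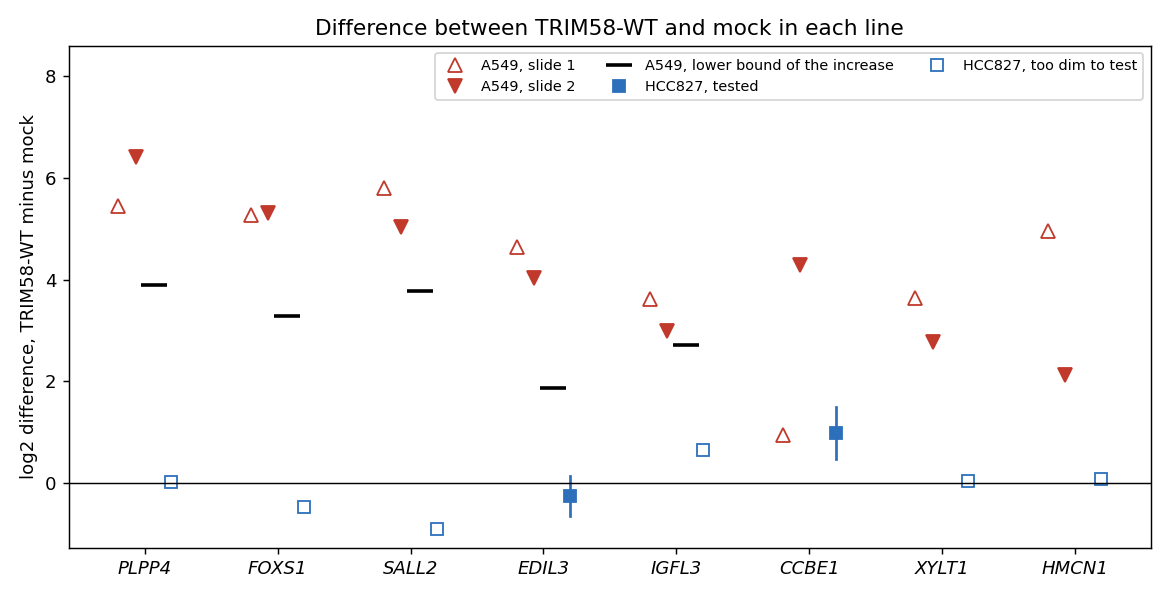
Difference between TRIM58-WT and mock (log2, vertical axis) for each gene in A549 on slide 1 (open triangles) and slide 2 (filled triangles) and in HCC827 (filled squares for the tested genes EDIL3 and CCBE1, with the 95% confidence interval, open squares for genes too dim to test), with a black line at the lower bound of the A549 increase for the 5 genes that have one. All A549 values lie above 0, CCBE1 on slide 1 is the lowest of them at 0.94, and the HCC827 values lie between -0.91 and 0.98.

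In HCC827, the line the choice did not use, EDIL3 and CCBE1 could be tested, and neither was called at an adjusted p under 0.05 and 2-fold (limma, adjusted over 19542 probes, of which 0.885% were called). CCBE1 was at -0.08 and -0.06 in mock and at 1.12 and 0.69 in TRIM58-WT. Both TRIM58-WT arrays were higher than both mock arrays, as for 29.6% of the tested probes. The difference was 0.98 with a 95% confidence interval of 0.46 to 1.49 and an adjusted p of 0.108 (limma), which ranged from 0.0597 to 0.876 over the alternatives. EDIL3 was at -0.14 and -0.29 in mock and at -0.57 and -0.39 in TRIM58-WT. Both TRIM58-WT arrays were lower than both mock arrays, as for 27.1% of the tested probes. The difference was -0.26 with an interval of -0.66 to 0.13 and an adjusted p of 0.375 (limma). The other 6 genes were dark in both HCC827 groups, except SALL2 on mock array 1, and give no fold. A difference between such dark signals was not detectable on these arrays. The lowest signals well above background on the HCC827 TRIM58-WT arrays were -3.49 and -3.25. PLPP4, FOXS1, SALL2 and IGFL3 had means of 1.01, 0.39, 0.88 and -0.14 in A549 TRIM58-WT and did not reach such levels in HCC827.

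The 5 genes measured on all A549 TRIM58-WT arrays divided by their state in HCC827. EDIL3 was well above background on all 4 HCC827 arrays, as were 39 (24.7%) of the 158 probes dark in A549 mock and measured on all A549 TRIM58-WT arrays. PLPP4, FOXS1 and IGFL3 were dark on all 4, as were 80 (50.6%) of the 158, and SALL2 was well above background on 1. CCBE1 was one of 256 (8.16%) of the 3137 probes measured on 1 or 2 A549 TRIM58-WT arrays that were well above background on all HCC827 arrays, and XYLT1 and HMCN1 were among the 2341 (74.6%) dark on all of them. Of all 21957 probes dark in A549 mock, 1089 (4.96%) were well above background on all 4 HCC827 arrays.

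Among 86 genes related to these 8 by family or pathway, 54 were tested in A549, 6 were higher and 5 lower in TRIM58-WT, and 43 were not called (limma, adjusted p under 0.05 and 2-fold, 1 probe a gene). The lists were drawn up with earlier results of these data known, so these counts are given as a description. Of all 11201 genes tested in A549, 7.98% were called, 3.91% as higher and 4.07% as lower. The median difference of the 54 was -0.03, against 0.03 over all genes. Calls in A549 numbered 1171 of 16920 probes (6.92%), of which 50.5% were higher in TRIM58-WT, or 25.6% of the 1113 called with the median in place of the 75th percentile. In HCC827, 0 of 50 related genes were called, against 1.1% of all 12195 genes.

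Forkhead factors held most of the calls: of 18 tested, 4 were higher, 2 lower and 12 not called, with a median of 0.22. FOXL2, a factor of ovarian granulosa cells, was at -1.86, -1.77 and -0.96 in the A549 mock replicates and at 1.21, 1.88 and 1.94 in TRIM58-WT, and rose by 3.21 (limma, adjusted p = 0.00426). FOXF2, a factor of mesenchyme, rose by 2.59 (adjusted p = 0.0108), FOXQ1 by 1.82 (adjusted p = 0.0184) and FOXP1 by 1.68 (adjusted p = 0.0385). FOXL1 was at 0.70, 0.68 and -0.28 in mock and dark on all TRIM58-WT arrays, a fall of at least 7.45-fold (adjusted p = 0.00439, limma). FOXC1 fell by 1.13 (adjusted p = 0.0477). FOXP1 and FOXC1 were not called under the median scaling. FOXS1 itself thus was accompanied by family members in both directions.

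Outside the forkhead list, 5 related genes were called, MFGE8 and PLPPR3 as higher and IGFL2, PCSK5 and CSGALNACT1 as lower. MFGE8, the secreted paralog of EDIL3, was at -2.19, -1.97 and -1.61 in the mock replicates and at 0.18, 0.04 and 0.37 in TRIM58-WT, and rose by 2.12 (limma, adjusted p = 0.00381). The integrin subunits ITGAV and ITGB5, to which EDIL3 and MFGE8 bind, differed by -0.25 and -0.57 and were not called. IGFL2, of the family of IGFL3, went the other way: it was at 0.77, 0.95 and -0.28 in mock and dark on all TRIM58-WT arrays, a fall of at least 8.62-fold (adjusted p = 0.00356, limma). IGFLR1, the receptor of the family, differed by 0.80 and was not called. PLPPR3, of the lipid phosphatase-related family, was dark in mock and at least 3.44-fold higher in TRIM58-WT (adjusted p = 0.0354, limma), while the other 6 genes of that list tested were not called, at a list median of -0.36. PCSK5, a proprotein convertase, was measured on 1 of 3 TRIM58-WT arrays and was lower there by at least 2.78-fold (adjusted p = 0.0279, limma), though by only 0.46 on the log2 scale and not called with normexp. VEGFC, which convertases cleave, differed by -0.40 and was not called. Of 15 tested genes of glycosaminoglycan synthesis, CSGALNACT1, which starts chondroitin chains, fell by 1.64 (adjusted p = 0.00724), and 14 were not called, among them XYLT2, the paralog of XYLT1 (0.31). SALL1, SALL4, ITGB3, IGFL1 and IGFL4 were too dim to be tested in A549. No called gene was found among SALL3 (0.10), the tested member of the SALL list, or FBLN1 (1.78), EFEMP1 (1.98) and FBLN5 (-1.13) of the fibulin family (adjusted p = 0.841, 0.0738, 0.0907 and 0.118, limma).

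Of the 11 calls, those of FOXL2, FOXL1, MFGE8 and IGFL2 held with each A549 replicate left out in turn. The other 7 were lost without at least 1 replicate. The number of related genes called was 5 without mock replicate 1, mock replicate 2, TRIM58-WT replicate 2 or TRIM58-WT replicate 3. With normexp, MFGE8, FOXC1, PCSK5 and PLPPR3 were not called. FOXL1 and IGFL2 differed by -1.07 and -1.42 with it, less in size than their bounds of 2.90 and 3.11 (log2). PLPPR3 differed by 0.57, below its bound of 1.78.

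**Figure D3:**
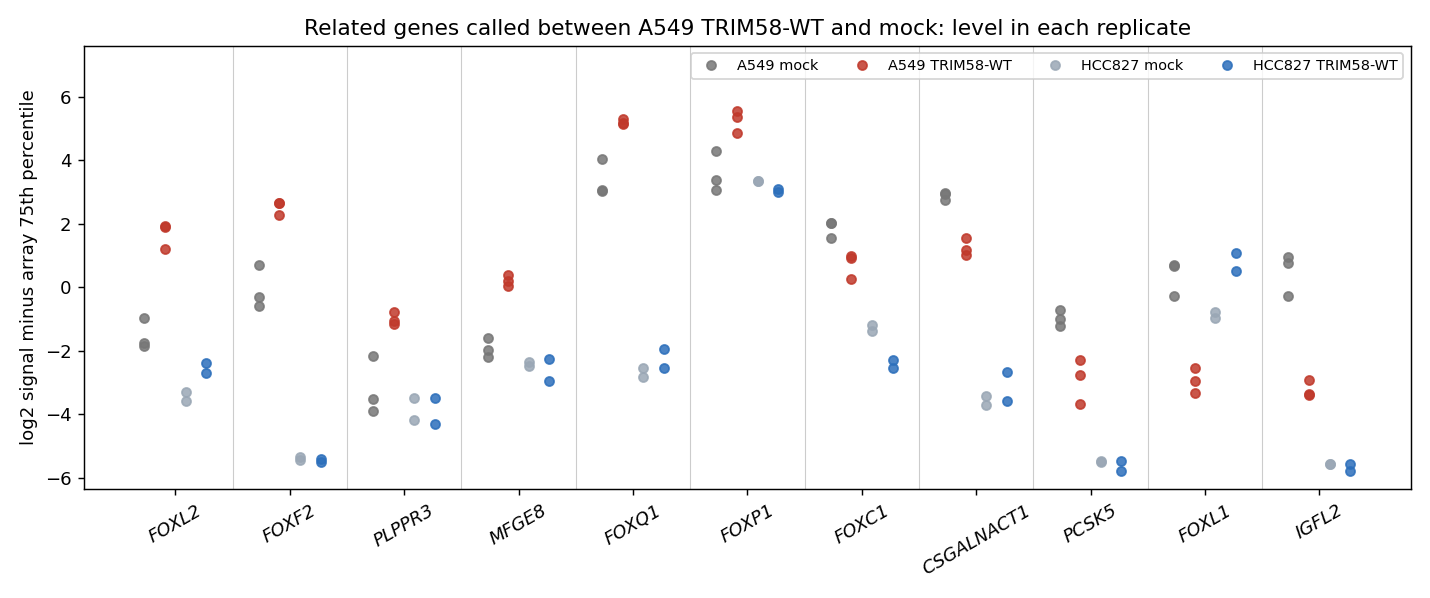
Level of the 11 related genes called in A549 in each replicate (log2 signal minus the 75th percentile of the array, vertical axis), with A549 mock in dark grey, A549 TRIM58-WT in red, HCC827 mock in light grey and HCC827 TRIM58-WT in blue. Genes are ordered by their A549 difference, from FOXL2 (3.21) to IGFL2 (-3.71), and FOXL1 and FOXP1 separate the other way in HCC827.

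The genes whose pattern was most like each of the 8 were found by Pearson's r over the 10 replicates, among 16597 probes with a symbol. The replicates share 4 groups, so r mostly follows group means, and it is a description. For PLPP4 the closest were FNDC5 (r = 0.990) and CXXC5 (0.989), for FOXS1 FNDC5 (0.989) and SCN9A (0.989), and for SALL2 CLTCL1 (0.987) and PID1 (0.984). For XYLT1, dark on all arrays but A549 TRIM58-WT array 1, they were SRRM3 (0.998) and SCN9A (0.998). FNDC5 and SCN9A thus stood beside more than 1 of the genes. FNDC5, SCN9A and SRRM3 were candidates only through A549 TRIM58-WT, where the 8 genes were chosen as raised, so this likeness is built in. For EDIL3 the closest were MAGED4B (0.989), whose probe cannot be told apart from the near-identical copy MAGED4, and EEF1A2 (0.988). For IGFL3 they were GLIPR2 (0.991) and MRTFA (0.989). MAGED4B had the same order of group means as EDIL3: -3.30 in A549 mock, 0.62 in A549 TRIM58-WT, 1.73 in HCC827 mock and 1.46 in HCC827 TRIM58-WT. The weakest likeness was that of CCBE1, to KHDC1 (0.973) and ZNF550 (0.971), and of HMCN1, to TMEM9 (0.978) and TSIX (0.975). Without mock replicate 3, FNDC5 ranked 8th for both PLPP4 and FOXS1, while SRRM3 and MAGED4B stayed first.

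Markers of cell type moved with the A549 groups. Of 7 epithelial markers tested, 4 were lower in TRIM58-WT: KRT19 by at least 723-fold (adjusted p = 0.000151, limma), CLDN4 by at least 8.01-fold (adjusted p = 0.0181), EPCAM, measured on 1 of 3 TRIM58-WT arrays, by at least 20.8-fold (adjusted p = 0.0117), and KRT8 fell by 1.37 on the log2 scale (adjusted p = 0.0260). Over all genes tested in A549, 4.07% were called lower and 3.91% higher. The summed epithelial level, in multiples of the 75th percentile, ran from 1024 to 1316 in A549 mock and from 552 to 662 in TRIM58-WT. KRT18, the brightest of the list with means of 9.62 and 8.97, made up much of these sums. CDH1 was well above background on all arrays of both groups, with a mean lower by 2.33 in TRIM58-WT (limma, adjusted p = 0.0716). The means of MUC1 and KRT18 were lower by 1.36 and 0.65, and these 3 were not called. Of 4 mesenchymal markers tested, CDH2 was higher, by 2.72 (limma, adjusted p = 0.0472), with an SD of 1.33 between the mock replicates. VIM, TWIST1 and ZEB1 differed by 2.06, 1.75 and 1.15 and were not called. The summed mesenchymal level ran from 28.8 to 193 in mock and from 122 to 395 in TRIM58-WT, with VIM the brightest of the list. These A549 marker calls were not checked with replicates left out or under other scalings. Fibroblast markers (0 of 6) and endothelial markers (0 of 5) were not well above background on all arrays of any group. LUM, a fibroblast marker, was well above background on 3 of 4 A549 mock arrays and on 0 TRIM58-WT arrays. None of 7 lung lineage markers was well above background on all arrays of an A549 group, while NKX2-1 and NAPSA were in HCC827. In HCC827, 0 of 8 epithelial markers were called, against 1.1% of all genes tested there. TWIST1 of the mesenchymal list, dark on both TRIM58-WT arrays, was lower there by at least 2.17-fold (adjusted p = 0.0288, limma). That call is lost with no filter and with the replicate block, which leave 0 calls in HCC827. The other 3 mesenchymal markers tested were not called: VIM differed by 1.43, ZEB1 by -0.30 and CDH2, dark in TRIM58-WT, by -1.35. The summed mesenchymal level ran from 2.73 to 3.51 in HCC827 mock and from 5.30 to 7.87 in HCC827 TRIM58-WT, again with VIM the brightest. The part of these shifts in the levels of the 8 genes was not tested.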

How the data were processed

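Total RNA of A549 and HCC827 transfectants was hybridised to 11 one-colour Agilent arrays. The authors deposited for each array the spot intensities of Agilent Feature Extraction, version 11.5.1.1 per the file headers and 10.7 per the submitters' processing notes, after background subtraction and with no scaling between arrays, together with flags for spots well above background and for outliers. A table of log2 values was deposited too. After a baseline per probe, 95.5% of its values lay within 0.01 of the log2 values computed here. The precision is limited by the number of arrays.

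Control and outlier spots were left out, spots of a probe were averaged, and log2 was taken minus the 75th percentile of each array. A probe counted as well above background when over a share of 0.5 of its spots did. Those that did so throughout 1 of the groups compared were tested with limma 3.58.1 (R 4.3.3) in each line, with Benjamini-Hochberg adjustment, and called at an adjusted p under 0.05 and 2-fold. The fit was tested on simulated data. Samples were grouped by their labels. A549 replicates with the same number correlated at 0.50, -0.42 and 0.50 and HCC827 replicates at 0.08 in their deviations from the group means, so the numbers were not used as pairs. Of the probes, 64.2% were named through RefSeq accessions (GRCh38.p14), which also gives the gene positions. Python 3.11.15 and matplotlib 3.10.9 made the figures.

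The members, the lists and the motifs were chosen with earlier results of these data known. The genes named are the 8 genes, TRIM58, the 2 genes most correlated with each, at most 4 called genes and the direct partners of each list, and called markers; FOXP1, FOXC1 and other named genes beyond that, such as LUM, were added after their values were seen. In the lists, a gene was represented by its brightest probe. Alternatives were a median shift, quantile normalization, normexp with an offset of 50 on the median spot signal, outlier spots kept, the authors' table, other filters, both lines in 1 fit, other uses of mock arrays 1-1 and 1-2, slide and replicate number as blocks, a Welch t-test, and each replicate left out. The paper names the Welch test in its general statistics, and its array methods name no test. Averaging TRIM58-WT replicates 2 and 3 was added after seeing the data.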

Additional observations from a re-analysis of the deposited data

Results flagged for a closer look

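For EDIL3 and the related genes FOXL1 and FOXP1, all replicates of A549 TRIM58-WT lay on one side of A549 mock and all replicates of HCC827 TRIM58-WT on the other side of HCC827 mock. The difference between the lines was not tested, and 1211 (7.65%) of the 15821 probes tested in both lines did the same. EDIL3 was higher in A549 TRIM58-WT and differed by -0.26 in HCC827, where it was well above background on all arrays. FOXL1, lower in A549 TRIM58-WT, differed by 1.68 in HCC827 (limma, adjusted p = 0.0710), and FOXP1, higher in A549 TRIM58-WT, differed by -0.31 (limma, adjusted p = 0.283). FOXS1 and SALL2 met the same condition with HCC827 values of -0.47 and -0.91, but these are differences between dark signals, apart from SALL2 on HCC827 mock array 1, and no direction is read from them.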

How the results depend on the processing

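All 8 A549 differences kept their direction over 17 settings, a description only, since the choice of the genes asked for that direction. EDIL3 (from -0.35 to -0.17) and CCBE1 (from 0.76 to 1.19) kept theirs in HCC827 over 13 settings, with no call. The number of probes called was less stable. In A549 it was 1171, and 507 with normexp, 609 with no filter, 673 with a filter on every array, 24 with a Welch t-test (1312 at an unadjusted p under 0.05 and 2-fold), 1802 with slide as a block and mock arrays 1-1 and 1-2 kept apart, and 333 with TRIM58-WT replicates 2 and 3 averaged. With 1 replicate left out it ran from 297 to 2192: 297 without mock replicate 1, 360 without mock replicate 2, 2192 without mock replicate 3, 372 without TRIM58-WT replicate 2 and 313 without replicate 3. In HCC827 it was 173, and 650 with a median shift, 102 with normexp, 367 with a filter on every array, 0 with no filter (limma, 4371 at an unadjusted p under 0.05) and 0 with a Welch t-test (343 at an unadjusted p under 0.05 and 2-fold). With 1 replicate left out it ran from 0 to 461: 0 without mock replicate 1 (limma, 2650 unadjusted) or mock replicate 2 (2673 unadjusted), and 461 without TRIM58-WT replicate 2. With the replicate block, A549 had 1122 calls and HCC827 had 0 (limma, 3840 unadjusted). Leaving out 1 of 2 replicates assumes that the lone sample varies like the other group. Related genes called in HCC827 numbered 4 with a median shift, 1 with normexp, 5 with a filter on every array and 1 without TRIM58-WT replicate 2. In A549 they numbered 7 with no filter and 6 with a filter on every array. The cause of these changes was not tested, apart from the fewer probes or samples that an alternative leaves. Signal over background limits the A549 mock levels to bounds.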
